A study of Mus musculus with 17 samples.

Results

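Cd69 and 9 other genes of the tissue residency signature were followed in CD8+ T cells, which include the killer cells of adaptive immunity, isolated from brain and blood of WT and APP-PS1 mice. The other 9 genes were Litaf, Vps37b, Inpp4b, Qpct, Chn2, Tmem123, P2rx7, Cd38 and Cd101. They were selected by symbol, and all 10 were found among the 48709 genes of the count table. The choice was made with brain against blood values of these libraries known, so that contrast is described for the 10 genes without a test, and the contrasts between strains are tested. RNA sequencing counts covered 5 WT brain, 5 WT blood, 4 APP-PS1 brain and 3 APP-PS1 blood libraries. APP-PS1 mice carry the APP Swedish and PS1 dE9 transgenes and are an amyloid model of Alzheimer's disease. These transgenes are driven by a prion protein promoter and directed to neurons of the central nervous system, so T cell levels give no check of the genotype. WT mice served as controls. Breeding was under SPF conditions, and the animals were moved to non-SPF housing a few days before the experiment. The design text speaks of aged animals but the labels hold no ages.

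Every WT library was female. Of the APP-PS1 libraries, 3 of 4 from brain and 2 of 3 from blood were male, so strain was almost fully tied to sex. Brain cells were released mechanically and freed of myelin with Percoll, whereas red cells were lysed in blood, so tissue and processing cannot be told apart. The series was made from 10 WT and 7 APP-PS1 mice, as many as there are libraries, and which brain and blood samples shared an animal, if any, is not labelled. Replicates are numbered here by the order of the sample accessions, as the labels give no numbers. The p-values measure the spread between the libraries, some of which may be technical.

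Resident memory CD8+ T cells stay in a tissue instead of recirculating through blood and lymph. Egress from tissue is driven by S1PR1, a receptor for sphingosine 1-phosphate whose gene is activated by the transcription factor KLF2. CD69 binds S1PR1 and takes it off the cell surface, and is both a retention factor and an early activation marker. The other genes encode surface molecules (TMEM123, P2RX7, CD38, CD101), endosomal sorting proteins (LITAF, VPS37B), signalling enzymes (INPP4B, CHN2) and the secretory pathway enzyme QPCT. CD8+ T cells that settle in the brain are known to carry CD69 and often CD103, the product of Itgae.

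The proximal promoters of Litaf and Inpp4b, which averaged more in brain than in blood in both strains, and of Tmem123, which averaged less, are shown because KLF factors bind C-rich boxes and Klf2 itself differed between the tissues. The sequences are from RefSeq (GRCm38.p6), run 5′ to 3′ on the strand of the gene, and cover 250 bases upstream of a transcript start. Capitals mark matches to the KLF box CCNCNCCC on either strand, and overlapping matches were counted separately.
Litaf: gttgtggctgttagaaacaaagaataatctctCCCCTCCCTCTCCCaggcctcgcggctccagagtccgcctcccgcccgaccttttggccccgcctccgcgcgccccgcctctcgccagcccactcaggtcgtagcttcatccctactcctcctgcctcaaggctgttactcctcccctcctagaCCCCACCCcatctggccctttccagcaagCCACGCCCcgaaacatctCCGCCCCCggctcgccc
Inpp4b: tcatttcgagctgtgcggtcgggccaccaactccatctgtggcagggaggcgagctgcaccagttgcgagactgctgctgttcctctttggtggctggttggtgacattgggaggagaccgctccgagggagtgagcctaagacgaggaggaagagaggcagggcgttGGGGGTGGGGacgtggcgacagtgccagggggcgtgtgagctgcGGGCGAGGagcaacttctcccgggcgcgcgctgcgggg
Tmem123: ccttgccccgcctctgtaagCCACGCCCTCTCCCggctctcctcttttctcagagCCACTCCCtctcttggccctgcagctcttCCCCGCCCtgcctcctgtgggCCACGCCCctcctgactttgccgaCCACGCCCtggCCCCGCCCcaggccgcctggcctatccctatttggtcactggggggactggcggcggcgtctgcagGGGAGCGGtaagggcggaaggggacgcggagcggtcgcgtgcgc
The Litaf window is chr16:10993122-10993371 on the minus strand and holds 5 matches. The Inpp4b window is chr8:81342312-81342561 on the plus strand and holds 3 matches. The Tmem123 window is chr9:7763915-7764164 on the plus strand and holds 8 matches, the most of the 3 shown. G and C made up 65.6% of the Litaf window, 66% of the Inpp4b window and 70.8% of the Tmem123 window. A second, overlapping Tmem123 entry held 9 matches, and the P2rx7 entries, not shown, held 6 and 0 matches. Such matches were common, being present in 45.9% of 32851 promoter entries and in 7 of the 12 entries found for 7 of the 10 genes. The AP-1 motif TGANTCA was present in 6.75% of all entries and in 1 of the 12, the RUNX motif TGTGGT in 14% and in 1, and the NF-kB motif GGGNNTTCC in 4.98% and in 0. These are matches of letters and not measured binding sites. Cd69, Vps37b and Qpct had no entry.

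The libraries were shallow, with 27646 to 214670 counts each, and WT brain and WT blood had medians of 95839 and 101819 counts. APP-PS1 brain ranged from 27646 to 127707 and APP-PS1 blood from 39055 to 46336. Levels are given as CPM, counts per 1000000 counts of the library, and a count of 0 over a whole group allows up to 5.75 CPM in WT brain, 5.04 in WT blood, 10.1 in APP-PS1 brain and 23.7 in APP-PS1 blood. APP-PS1 brain replicate 1 and APP-PS1 blood replicate 1 stood apart from the other libraries on the first principal component. They had the lowest totals of all libraries, 27646 and 39055 counts. The next highest scores, 12.7 and 5.87, were those of APP-PS1 blood replicates 2 and 3. The 6 CD8 T cell markers (Cd3d, Cd3e, Cd3g, Cd8a, Cd8b1 and Trac) had counts in every group and summed to 4554 to 8346 CPM per library, while Cd4 and Foxp3 were at 0 throughout. The microglial markers Tmem119, P2ry12, C1qa and Sall1 and the B cell marker Ms4a1 were at 0 in every library. Red cell genes summed to 156 to 873 CPM in WT brain against 2152 to 9967 in WT blood, and to 36.2 to 368 in APP-PS1 brain against 2970 to 8071 in APP-PS1 blood. Of the 3 NK cell markers Ncr1 was at 0 throughout, and the sum, nearly all Gzma, was 13.6 to 118 CPM in WT brain against 156 to 2131 in WT blood, and 0 to 117 in APP-PS1 brain against 108 to 535 in APP-PS1 blood. The 7 monocyte and macrophage markers, with Cd14, Ms4a7 and Adgre1 at 0 throughout, summed to 53.3 to 274 CPM in APP-PS1 brain against 0 to 51.2 in APP-PS1 blood, and overlapped in WT. Most of these marker counts were of 1 gene, Ccr2. It gave 115 of 116 counts in WT brain, 143 of 165 in WT blood, 56 of 60 in APP-PS1 brain and 3 of 3 in APP-PS1 blood. Brain and blood did not overlap for the red cell sum in either strain, for the NK sum in WT and for the monocyte sum in APP-PS1 mice. The NK and monocyte sums rest almost wholly on 1 gene each, so they do not show that such cells were present. The part of these sums in the tissue differences was not tested. In bulk libraries fewer cells that use a gene and less RNA of it per cell cannot be told apart.

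Between brain and blood the 10 genes did not move as a block. By mean CPM, 7 were higher in WT brain and 3 lower. In APP-PS1 mice 5 were higher in brain and 2 lower, and no direction is read for the other 3. Litaf, Inpp4b, Qpct and Chn2 were higher in brain in both strains. Vps37b and Tmem123 were lower in brain in both strains, against the direction the signature gives them. Cd69 itself was lower in WT brain and higher in APP-PS1 brain. P2rx7, Cd38 and Cd101 were higher in WT brain, P2rx7 by little. In APP-PS1 mice both groups held 3 counts or fewer of Cd38 and of Cd101, and the 0 of P2rx7 in blood allows more than its mean in brain. Over all 2366 genes above the expression filter (about 117 CPM in at least 3 libraries), 51.6% had a positive log2 fold change in WT and 51.7% in APP-PS1 mice. Of the 10 genes, 6 passed that filter, and Chn2, P2rx7, Cd38 and Cd101 did not. Beside those shares stand the 6 alone, of which 3 were positive in WT and 4 in APP-PS1 mice. Groups without overlap were found for 0 of the 6 in WT (2.62% of tested genes) and for 3 of the 6 in APP-PS1 mice (9.04%), Litaf and Inpp4b upward (5.07%) and Vps37b downward (3.97%). These counts are a description, because the genes were chosen on this contrast. In addition, Litaf and Qpct reached the filter level in brain libraries only and Vps37b in blood libraries only. Cd69 reached it in APP-PS1 libraries only. The shares over all tested genes are therefore no fair background for these genes.

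**Figure D1:**
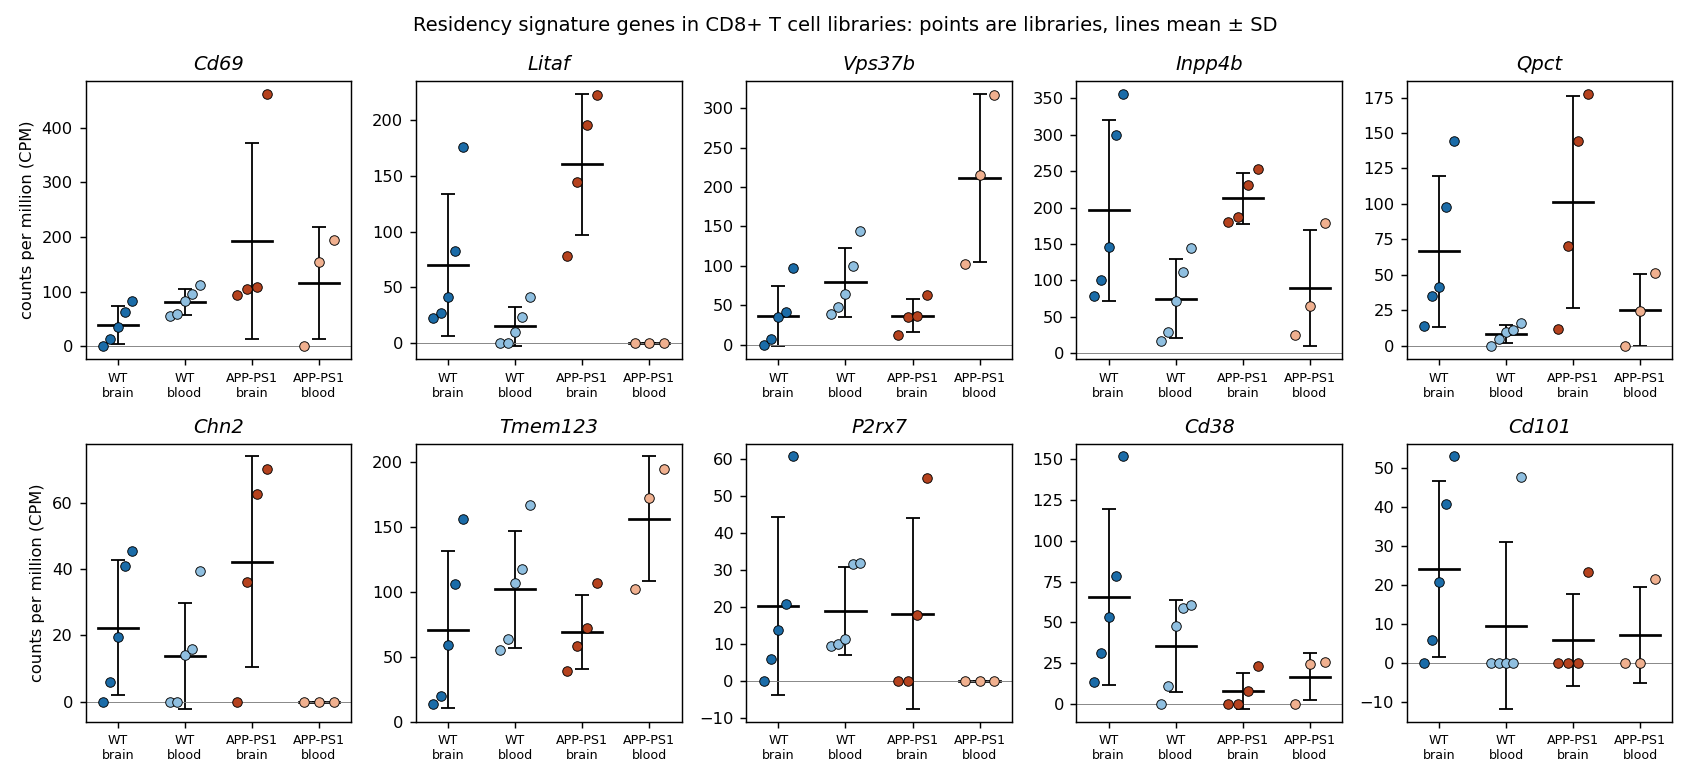
Level of each of the 10 genes in every library, in CPM on the vertical axis with a separate scale per gene, by group on the horizontal axis. Points are libraries and lines are means ± SD (5, 5, 4 and 3 libraries). Cd69 in APP-PS1 brain reaches 462 CPM in 1 library with the other 3 between 94.0 and 109, and Litaf, Chn2 and P2rx7 are at 0 in all 3 APP-PS1 blood libraries.

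Cd69 (GRCm38 chr6:129267325-129275436, minus strand, protein coding) is the gene that gives the signature its best known surface marker. In WT brain replicates 1 to 5 it stood at 13.6, 35.3, 0, 83.5 and 62.6 CPM, 24 counts in all. In WT blood it stood at 83.8, 55.4, 111, 95.8 and 58.9 CPM, from 47 counts. The WT groups overlapped, and the average was lower in brain, 38.998 ± 34.3 against 81.1 ± 24.0 CPM (SD, n = 5 each). In APP-PS1 brain Cd69 was at 109, 105, 462 and 94.0 CPM, from 50 counts. In APP-PS1 blood it was at 154, 194 and 0 CPM, from 15 counts. APP-PS1 brain and blood overlapped as well, because replicates 1 and 2 of blood lay above 3 of the 4 brain libraries. The log2 fold change of brain over blood was -0.94 (SE 0.61) in WT and 0.67 (SE 0.73) in APP-PS1 mice. Leaving out APP-PS1 brain replicate 3 took the latter to -0.21, so its sign rests on that library. The 7 B cell markers, of which 5 were detected in WT and Ms4a1 was at 0, summed to 40.8 to 97.7 CPM in WT brain and 128 to 459 in WT blood, and their part in the WT values of Cd69 was not tested.

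Tmem123 (GRCm38 chr9:7764041-7794333, plus strand, protein coding) encodes porimin, a mucin-like surface protein. In WT brain it was measured at 13.6, 58.9, 19.5, 106 and 157 CPM and in WT blood at 107, 55.4, 167, 63.9 and 118 CPM. In APP-PS1 brain it was measured at 72.3, 58.5, 107 and 39.2 CPM and in APP-PS1 blood at 102, 173 and 195 CPM. Blood averaged more in both strains, and the ranges overlapped in both. The log2 fold change was -0.51 (SE 0.53) in WT and -1.28 (SE 0.71) in APP-PS1 mice. Tmem123 had a count in all 17 libraries, so these values do not hinge on zeros.

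The other 3 surface genes were near the limit of detection. P2rx7 (GRCm38 chr5:122643911-122691432, plus strand), whose product is a channel opened by extracellular ATP, gave 12 counts over WT brain and 10 over WT blood, means of 20.2 ± 24.0 and 18.8 ± 11.9 CPM (SD, n = 5 each). It had 8 counts in APP-PS1 brain, all in replicates 3 and 4, and 0 in APP-PS1 blood. Cd38 (GRCm38 chr5:43868553-43912375, plus strand) encodes an ectoenzyme that consumes NAD, the molecule from which ART2 enzymes ADP-ribosylate P2RX7. WT brain held 37 Cd38 counts, at 13.6, 53.0, 78.2, 152 and 31.3 CPM, and WT blood held 26 counts between 0 and 60.6 CPM, with overlap. Cd101 (GRCm38 chr3:100993529-101029556, minus strand), an immunoglobulin family protein that restrains T cells, had 13 counts spread over 4 of 5 WT brain libraries and 3 in WT blood, all from replicate 4. The ratio of pooled Cd101 CPM, WT brain over WT blood, was 4.94, and 7 of the 13 brain counts came from WT brain replicate 4. WT brain replicate 4 held the highest value of its group for Cd69, Inpp4b, Qpct, Chn2, P2rx7, Cd38 and Cd101, so single libraries weigh on these means.

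Litaf (GRCm38 chr16:10959275-11066157, minus strand, protein coding) encodes a small membrane adaptor of late endosomes and lysosomes. In WT brain it was at 27.2, 82.4, 176, 22.8 and 41.7 CPM, and in WT blood at 41.9, 23.7, 0, 0 and 9.82 CPM. The WT groups overlapped, with a log2 fold change of 1.68 (SE 0.80). In APP-PS1 brain Litaf was at 145, 222, 196 and 78.3 CPM, and all 3 APP-PS1 blood libraries were at 0. Brain was therefore at least 6.25-fold higher than the level that 3 counts over APP-PS1 blood would give. The APP-PS1 groups did not overlap. Without WT blood replicate 1, which held 9 of the 13 WT blood counts, the WT value was 2.49, and after thinning all libraries to the smallest it was 3.93.

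Vps37b (GRCm38 chr5:124004641-124032270, minus strand, protein coding), a subunit of the ESCRT-I complex that sorts ubiquitinated receptors for degradation, went the other way. WT brain held 40.8, 35.3, 97.7, 7.59 and 0 CPM and WT blood held 144, 47.4, 100.3, 63.9 and 39.3 CPM. APP-PS1 brain held 36.2, 11.7, 35.6 and 62.6 CPM, all below the 102, 216 and 316 CPM of APP-PS1 blood. The log2 fold change was -1.41 (SE 0.69) in WT, with overlap, and -2.45 (SE 0.83) in APP-PS1 mice, without. Vps37b overlaps Hip1r on the opposite strand, which had 61 counts in all libraries against 108 for Vps37b, and reads of the pair cannot be told apart without a stated strand setting.

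Inpp4b (GRCm38 chr8:81342556-82127914, plus strand, protein coding), a phosphatase that removes the 4-phosphate from phosphatidylinositol 3,4-bisphosphate, was the most deeply counted of the 10 genes with 224 counts. WT brain stood at 299, 100.1, 78.2, 357 and 146 CPM and WT blood at 112, 71.2, 145, 15.97 and 29.5 CPM. APP-PS1 brain stood at 253, 187, 231 and 180.1 CPM and APP-PS1 blood at 179, 64.7 and 24.3 CPM. Brain was higher on average in both strains, with overlap in WT and a bare separation in APP-PS1 mice. The log2 fold changes were close to each other, 1.25 (SE 0.46) in WT and 1.23 (SE 0.66) in APP-PS1 mice. Without APP-PS1 blood replicate 1, which stood apart, the APP-PS1 value was 2.07. Chn2 (GRCm38 chr6:54039554-54301810, plus strand), the Rac GTPase activating protein beta-chimaerin, gave 11 counts over WT brain, 9 over WT blood, 15 in APP-PS1 brain and 0 in APP-PS1 blood. Its mean was 22.4 ± 20.4 CPM in WT brain, 13.8 ± 16.1 in WT blood and 42.3 ± 31.7 in APP-PS1 brain (SD, n = 5, 5 and 4). APP-PS1 brain was at least 2.13-fold above the level of 3 counts in APP-PS1 blood, though 1 brain library was at 0. Gm15527, on the opposite strand of Chn2, had 6 counts.

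Qpct (GRCm38 chr17:79051906-79090378, plus strand, protein coding) encodes glutaminyl cyclase, which forms pyroglutamate at the N terminus of secreted proteins. WT brain stood at 13.6, 35.3, 97.7, 144 and 41.7 CPM and WT blood at 4.66, 15.8, 11.1, 0 and 9.82 CPM. The ranges met only at the bottom, where WT brain replicate 1 (13.6 CPM, a single count) lay below WT blood replicate 2. The log2 fold change of 2.70 (SE 0.95) was the highest of the 6 tested genes in WT and rests on 35 brain and 5 blood counts. APP-PS1 brain stood at 145, 11.7, 178 and 70.5 CPM and APP-PS1 blood at 51.2, 0 and 24.3 CPM, with overlap and a log2 fold change of 1.89 (SE 1.23). That value was 2.80 without APP-PS1 blood replicate 1 and 0.96 with limma voom. The 2 tissue contrasts share no library.

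Over 26 alternatives the WT log2 fold changes ran from -1.34 to -0.75 for Cd69, 1.14 to 3.93 for Litaf, -1.98 to -0.75 for Vps37b, 0.93 to 1.53 for Inpp4b, 2.10 to 3.00 for Qpct and -0.98 to -0.29 for Tmem123. In APP-PS1 mice they ran from -0.21 to 1.37 for Cd69, -3.07 to -1.75 for Vps37b, 0.80 to 2.07 for Inpp4b, 0.96 to 2.80 for Qpct and -1.58 to -0.91 for Tmem123. Of these 11 values, Cd69 in APP-PS1 mice was the one whose sign changed.

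**Figure D2:**
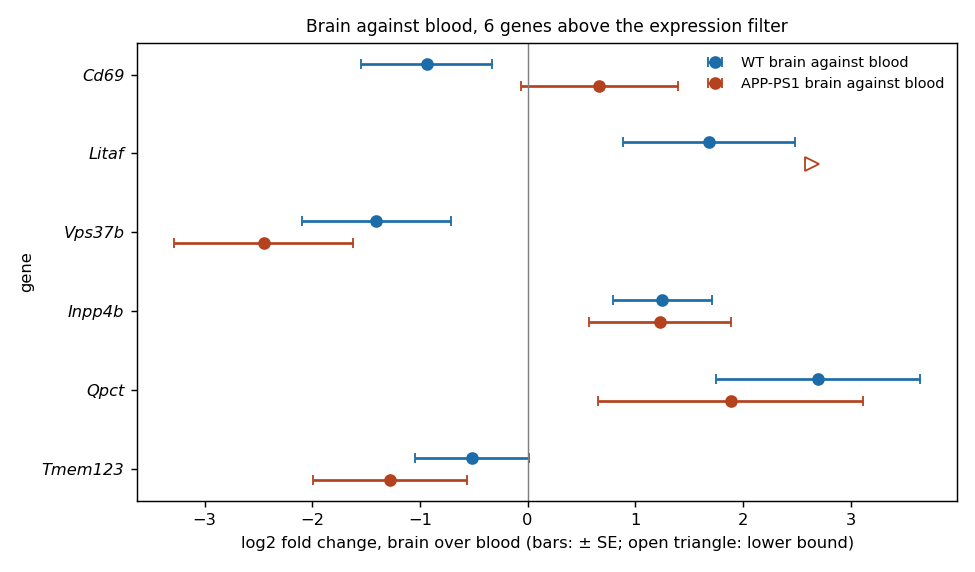
Log2 fold change of brain over blood on the horizontal axis for the 6 genes above the expression filter, in WT (blue) and APP-PS1 mice (red), from edgeR. Points are estimates, bars ± SE and the open triangle a lower bound, as Litaf had 0 counts in APP-PS1 blood. Litaf, Inpp4b and Qpct lie to the right in both strains, Vps37b and Tmem123 to the left, and Cd69 falls on opposite sides (-0.94 and 0.67).

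Other residency genes, from lists written with earlier results of these data known, are set beside the 10. Their calls, adjusted p and tallies in brain against blood are therefore a description as well. Of 34 further genes reported as high in resident cells, 13 passed the filter, and in WT brain against blood 3 rose and 0 fell (0.761% of all tested genes passed in either direction). The 3 were Cxcr6, a chemokine receptor of resident cells, with a log2 fold change of 1.21 (SE 0.28, edgeR adjusted p = 0.0130), the chemokine gene Xcl1 with 2.34 (SE 0.40, adjusted p = 0.000121) and the exonuclease gene Isg20 with 2.34 (SE 0.45, adjusted p = 0.000880). In WT 9 of the 13 were positive with a median of 0.72, against 0.016 over all tested genes. In APP-PS1 mice Cxcr6 (1.87) and Isg20 (3.49) rose (0.549% of all tested genes passed), and 9 of 13 were positive with a median of 1.39 against 0.033. The signature genes Junb, Rgcc, Bhlhe40 and Ppp1r15a were negative in both strains and passed the test in neither. Vps37b and Tmem123 among the 10, for which no test of this contrast is given, were negative in both strains as well. Itgae did not reach the filter, with 20 WT brain counts against 2 in WT blood and 11 in APP-PS1 brain against 0 in APP-PS1 blood.

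Of 28 genes reported as low in resident cells, 19 passed the filter, and 0 rose and 4 fell in each strain. Over all tested genes 0.761% passed in either direction in WT and 0.549% in APP-PS1 mice. This list too was written with earlier results known, so its counts are a description. In WT they included Klf2 (-2.46), Klf3 (-2.41) and S1pr1 (-3.59, edgeR adjusted p = 0.0151). In APP-PS1 mice they were Klf2 (-2.88), Klf3 (-3.91), the chemokine receptor gene Ccr7 (-4.47) and Lef1 (-2.13), a transcription factor of naive cells. All 19 were negative in WT with a median of -1.48, and 17 of 19 in APP-PS1 mice with a median of -1.41. Cd69 in WT thus lay with the genes that averaged less in brain, while its partner S1pr1 was lower there too.

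**Figure D3:**
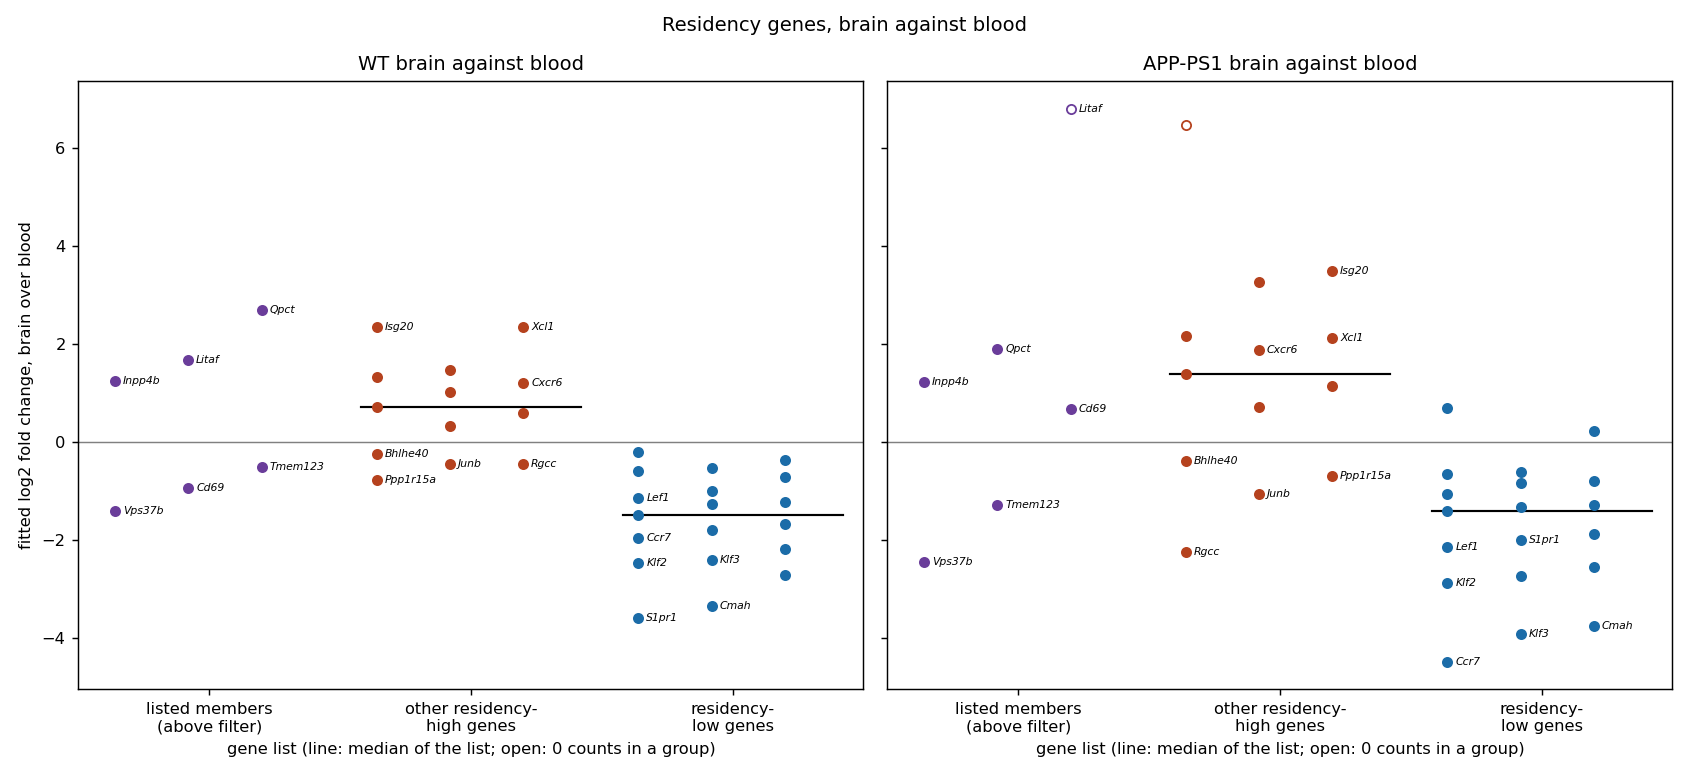
Log2 fold change of brain over blood in WT and in APP-PS1 mice for the tested genes of the 10 and of the residency-high and residency-low lists. Each point is 1 gene, labelled where the text names it, lines are list medians, and open symbols are genes with 0 counts in a group, whose fitted value is no bound. The residency-low genes sit below 0 in WT in all 19 cases, while the 6 tested genes of the 10 fall on both sides.

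S1pr1 and Klf2 belong to the egress axis that CD69 opposes. S1pr1 was at 0 to 29.4 CPM in WT brain, from 6 counts, and at 49.1 to 256 CPM in WT blood, from 71 counts, with no overlap. APP-PS1 mice had 3 counts in brain and 6 in blood, too few for a separation at this depth. Klf2 ranged from 114 to 200.1 CPM in WT brain and from 521 to 1070 in WT blood, and from 35.6 to 506 in APP-PS1 brain and 1119 to 1662 in APP-PS1 blood. Neither pair of groups overlapped for Klf2. Of the 13 genes listed for the axis 6 were tested, and 2 fell in WT (S1pr1 and Klf2) and 1 in APP-PS1 mice (Klf2). Over all tested genes 0.761% passed in WT and 0.549% in APP-PS1 mice. S1pr1 and Klf2 also stand on the residency-low list, so these calls repeat those given above. The axis genes Gnai2, Myl12a, Myl12b and Lgals1 did not pass, the lowest adjusted p being 0.0962 for Lgals1 in WT (log2 fold change -0.83). The medians were -0.69 in WT and -0.42 in APP-PS1 mice.

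The pathways around the other genes showed no called change. Of 12 phosphoinositide kinases and phosphatases around INPP4B 7 were tested and 0 passed in either strain, with medians of 0.33 and -0.13. Among them Inpp4a stood at 0.42 (log2 fold change in WT) and Pik3cd, the catalytic subunit of leukocytes, at 0.33. Of 10 genes of the Rac and Cdc42 switches near beta-chimaerin 7 were tested and 0 passed, with medians of -0.084 and -0.16, and Rac2, the haematopoietic Rac, stood at -0.13 in WT. The nucleotide genes that act with P2RX7 and CD38 had too few counts to be tested. Art2b, which ADP-ribosylates P2RX7, gave 8 counts over WT brain and 26 over WT blood. Entpd1, which degrades extracellular ATP, gave 18 and 28, and Nt5e, which forms adenosine, 9 and 17. No gene of the ESCRT and endosomal sorting list reached the filter, and its genes went in both directions. Tsg101, the core partner of VPS37B, gave 12 counts over WT brain and 35 over WT blood. Nedd4, a ubiquitin ligase gene singled out after its values were seen, gave 38 counts over WT brain (31.3 to 106 CPM) against 4 over WT blood (0 to 18.6 CPM). In APP-PS1 mice Nedd4 gave 30 counts over brain (46.8 to 149 CPM) and 0 over blood, so its groups did not overlap in either strain.

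Between strains, the first question is whether brain CD8+ T cells of APP-PS1 mice differed from those of WT mice in these genes. Cd69 was the member that stood out, at 193 ± 180 CPM in 4 APP-PS1 brain libraries against 38.998 ± 34.3 CPM in 5 WT brain libraries (SD). The 4 APP-PS1 values (94.0 to 462) all lay above the 5 WT values (0 to 83.5), a separation upward that 0.845% of tested genes showed. The log2 fold change was 2.05 (SE 0.63), with an unadjusted p of 0.00186 in edgeR's quasi-likelihood test, the third lowest of 2366 genes. Cd69 reached the filter level in 3 libraries, all APP-PS1 (462 CPM in brain, 154 and 194 in blood). It entered the tested genes only through the strain where it was higher, so that share and rank are no fair background for it. After Benjamini-Hochberg adjustment the edgeR p was 0.999, and 0 genes were called in this contrast (0%, with 98 genes, 4.14%, at an unadjusted p under 0.05). DESeq2 and limma voom also called 0 genes, and over all alternatives the adjusted p of Cd69 ran from 0.427 to 1.00. Without APP-PS1 brain replicate 3 the 3 remaining libraries (94.0 to 109 CPM) still lay above WT brain, but the log2 fold change was 1.19. With sex as a term it was 0.66, and the only female APP-PS1 brain library had 94.0 CPM, from 12 counts, against at most 83.5 CPM in the 5 female WT libraries. The microglial marker sum was highest in replicate 3 of APP-PS1 brain as well, at 142 CPM against 0 to 95.3 in WT brain. That sum included C1qc (35.6 CPM, in no other library) and C1qb (17.8 CPM), which were both at 0 in WT brain, while Tmem119, P2ry12, C1qa, Csf1r and Sall1 were at 0 in APP-PS1 brain. The part of these cells in the Cd69 value was not tested. The B cell marker sum did not overlap either, at 107 to 597 CPM in APP-PS1 brain against 40.8 to 97.7 in WT brain, with Cd79a and Ms4a1 at 0 in APP-PS1 brain. Within APP-PS1 brain it was lowest, 107 CPM, in replicate 3, the library with the most Cd69, and its part was not tested. The strain contrast in brain and the WT tissue contrast share the WT brain libraries.

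The other 5 tested genes did not pass in brain, with edgeR adjusted p of 0.999 each. Litaf averaged 160.2 ± 63.4 CPM in APP-PS1 brain and 70.0 ± 63.7 in WT brain (SD, n = 4 and 5), a log2 fold change of 1.21 (SE 0.75) with overlap. Vps37b (0.25), Inpp4b (0.025), Qpct (0.45) and Tmem123 (-0.24) had log2 fold changes smaller than their standard errors. Only Cd69 reached an unadjusted p under 0.05, so 1 of 6 did, beside 4.14% of all tested genes. As Cd69 passed the filter through APP-PS1 libraries alone, nothing is drawn from that share.

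**Figure D4:**
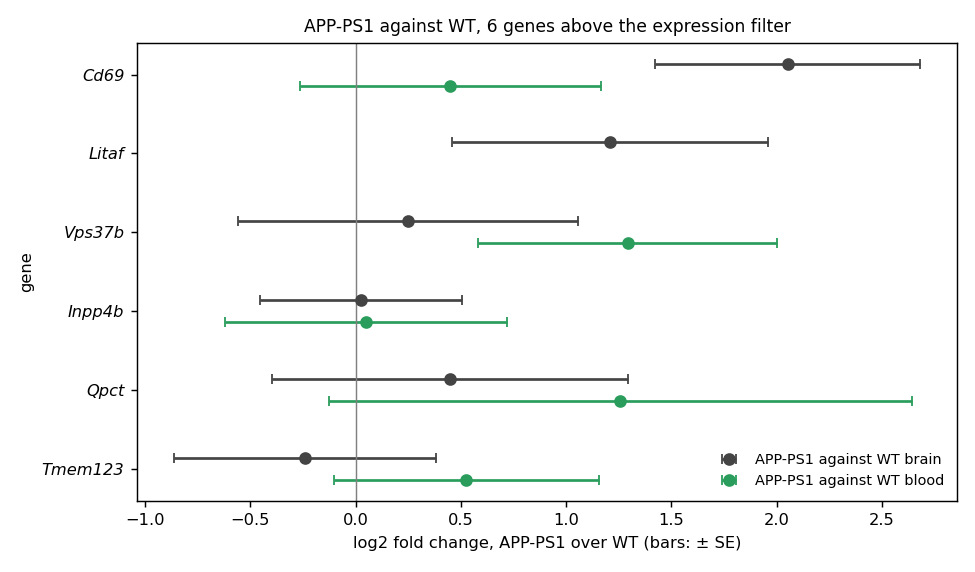
Log2 fold change of APP-PS1 over WT on the horizontal axis for the 6 tested genes, in brain (dark) and in blood (green), from edgeR. Points are estimates and bars ± SE, and Litaf in blood is not drawn because APP-PS1 blood had 0 counts. Cd69 in brain lies farthest from 0, at 2.05.

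Cd38 pointed the opposite way in brain. APP-PS1 brain held 3 Cd38 counts, at 0, 23.4, 0 and 7.83 CPM, against 37 in WT brain, where the lowest library had 13.6 CPM. The means were 7.81 ± 11.0 and 65.6 ± 53.9 CPM (SD, n = 4 and 5), and the groups overlapped through APP-PS1 brain replicate 2 only. An exact two-sided permutation test gave p = 0.0317 and, adjusted over 8 tests, 0.143, while the smallest p this design allows is 0.0159. The ratio of pooled CPM was 0.143 with an exact 95% interval of 0.0281 to 0.450, for counting error only. Replicates 1 and 3 of APP-PS1 brain were among the smaller libraries, where a single count is worth many CPM. Chn2 averaged 42.3 CPM in APP-PS1 brain and 22.4 in WT brain (exact permutation p = 0.302, adjusted 0.476), and P2rx7 18.1 and 20.2 (exact permutation p = 0.778, adjusted 0.889). Cd101 had 3 counts in APP-PS1 brain, all in replicate 4, against 13 in WT brain (exact permutation p = 0.206, adjusted 0.476).

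In blood, the comparison of strains rested on 3 APP-PS1 and 5 WT libraries. Vps37b averaged 212 ± 107 CPM in APP-PS1 blood and 79.1 ± 43.4 in WT blood (SD), and the groups overlapped because 1 APP-PS1 value of 102 lay below the WT maximum of 144. Its log2 fold change was 1.29 (SE 0.71, edgeR adjusted p = 0.676). Litaf had 0 counts in APP-PS1 blood and 13 in WT blood (edgeR adjusted p = 0.694), and the 0 allows up to 23.7 CPM, above the WT blood mean of 15.1. Cd69 (0.45, SE 0.71), Inpp4b (0.050, SE 0.67), Qpct (1.26, SE 1.38) and Tmem123 (0.53, SE 0.63) had edgeR adjusted p from 0.852 to 0.988. So 0 of 6 were called at an adjusted p under 0.05, and 0 of 6 at an unadjusted one, beside 0.0423% and 8.03% of all tested genes. The 1 gene called was Ccr7, higher in APP-PS1 blood with a log2 fold change of 2.54 (edgeR adjusted p = 0.0169), and no gene passed with sex as a term or without the 2 libraries that stood apart. DESeq2 called 0 genes and limma voom 3, with 0 of the 6 among them.

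Of the 4 genes below the filter, P2rx7 separated the strains in blood, as 3.68% of tested genes did in that direction. That share is over genes above the filter, so it is no background for the low counts of P2rx7. All 5 WT blood libraries had a count, at 9.32 to 31.9 CPM, and all 3 APP-PS1 blood libraries were at 0. The exact two-sided permutation test gave p = 0.0357, the smallest this design allows, and 0.143 adjusted over 8 tests. A count of 0 allows up to 23.7 CPM over APP-PS1 blood, above the WT blood mean of 18.8, so a lower level was not detectable at this depth. Chn2 and Cd38 in blood had an exact permutation p of 0.357 each (adjusted 0.476), and Cd101 1.

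Whether the tissue change differed between strains was tested with an interaction term. For Cd69 the change was higher in APP-PS1 mice by 1.60 on the log2 scale (SE 0.95, edgeR unadjusted p = 0.0974, adjusted p = 0.945). The opposite signs in the 2 strains were thus not separable before or after adjustment. Litaf had an edgeR adjusted p of 0.945 as well. Its fitted size depends on the prior count, as APP-PS1 blood was at 0. The interaction was -1.04 (SE 1.12) for Vps37b, -0.024 (SE 0.82) for Inpp4b, -0.81 (SE 1.51) for Qpct and -0.76 (SE 0.89) for Tmem123, with edgeR adjusted p of 0.999 each. Thus 0 of 6 were called (0.0423% of tested genes were), and 1 of 6 had an unadjusted p under 0.05 beside 4.95% of all tested genes. DESeq2 and limma voom called 0 genes.

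The 6 tested genes did not follow each other closely across libraries. Pearson's r of log2 CPM between pairs ran from -0.531 (Vps37b and Inpp4b) to 0.556 (Litaf and Qpct) over 17 libraries, which share tissue, strain and depth differences and low counts. Among 2262 genes the pattern most like Cd69 was that of Use1, a SNARE gene of the Golgi to endoplasmic reticulum route (r = 0.873), followed by Emd (0.763), which encodes the nuclear envelope protein emerin, and Ubl3 (0.746). Litaf was closest to the interferon-induced gene Ifit1 (0.814), to Wbp1 (0.798) and to Zfp639 (0.793). Vps37b was closest to Gzmm, a granzyme gene (0.756), to Ccr7 (0.736) and to Cmah (0.736), of which Ccr7 and Cmah stand on the residency-low list. Inpp4b was closest to Tnfaip8 (0.804), Hspd1 (0.781) and Pydc3 (0.779), Qpct to Bmyc (0.775), Cbx7 (0.762) and Smpd5 (0.732), and Tmem123 to Stra13 (0.779), Plcxd2 (0.737) and Pomp (0.685). The 99th percentile of r over all genes lay between 0.549 and 0.666 for the 6, so these are the upper tail of many correlations and are given as a description.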

How the data were processed

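Groups of the 17 CD8+ T cell libraries were taken from the labels. The table deposited by the authors holds raw integer counts. FastQC, Bowtie2 2.2.2, HTSeq 0.11.2, DESeq2 and GRCm38 appear in the submitters' processing notes, without roles or order. Strand setting and annotation release were not given in the sources used. Coordinates are from GENCODE M21 on GRCm38 and promoter sequences from RefSeq.

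The count model was edgeR 4.0.16 (R 4.3.3) with TMM factors, filterByExpr (2366 genes), robust quasi-likelihood F tests and 1 mean per group over all 17 libraries; the common biological coefficient of variation was 0.37. Benjamini-Hochberg adjustment was made per comparison, and genes were called at an adjusted p under 0.05. A standard error is the absolute log2 fold change over the square root of F. CPM use library totals. Genes below the filter were compared between strains by exact two-sided permutation of mean CPM in SciPy 1.17.1, 8 tests in all. Folds against a group at 0 use 3 counts over that group. Floors and the exact 95% interval given for Cd38 cover counting error only, as no molecular identifiers are named in the sources used. The model was tested on simulated data. Alternatives were RLE factors, DESeq2 1.42.0, voom with sample quality weights in limma 3.58.1, no filter or 5 CPM in 3 libraries, sex as a term, thinning to 27646 counts, only the 2 groups compared, log2(CPM + 10) and leaving out each library. Leaving out both libraries that stood apart was chosen after seeing the data. Figures were drawn with matplotlib 3.10.9.

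The 10 genes and all gene lists were chosen with earlier results of these data known. Of 122 listed symbols 116 matched the table. Every one of the 10 genes is named. From each list the called genes are named, or otherwise up to 3 tested genes of highest mean CPM. For each tested gene of the 10 the 3 genes of highest Pearson r are named (log2 CPM, prior count 2, without ribosomal and mitochondrial genes). Junb, Rgcc, Bhlhe40, Ppp1r15a, Itgae, the further egress genes and genes of lists with no tested member were named after their values were seen. Some genes that this rule names are not reported here.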

Additional observations from a re-analysis of the deposited data

Results flagged for a closer look

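3 single libraries lay apart from the rest of their group by the ratio of the gap to the range. Over 30 groups of 4 or 5 libraries examined, chance alone would give about 1 in 20. Cd69 reached 462 CPM in APP-PS1 brain replicate 3, from 26 counts, while the next library of that group had 109 CPM. Without that library Cd69 remained higher in APP-PS1 than in WT brain by 1.19 on the log2 scale, and the change of sign it brings to brain against blood in APP-PS1 mice is given above. Cd101 reached 47.9 CPM in WT blood replicate 4, from 3 counts, with 0 in the other 4 libraries. It reached 23.5 CPM in APP-PS1 brain replicate 4, also from 3 counts, with 0 in the other 3 libraries. With all other libraries at 0 that ratio is at its maximum for any count above 0, so both Cd101 values describe 3 counts in a library and nothing more.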

How the results depend on the processing

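No paired analysis was possible because the labels carry no replicate numbers and tie no brain library to a blood library. For the 6 tested genes and the 4 below the filter, 0 of 607 alternative values in the strain and interaction contrasts had an adjusted p under 0.05. For the 4 below the filter a single gene could not pass alone, so their share of this count says little. With all libraries the smallest exact permutation p was 0.0159 in brain and 0.0357 in blood, before adjustment over 8 tests. The filter asked for about 117 CPM in at least 3 libraries of 27646 to 214670 counts, and with no filter or 5 CPM genes below it enter the fit on few counts.

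Counts of called genes moved as follows. WT brain against blood gave 18, with limma voom 10 and after thinning 8, and leaving out 1 library gave 12 to 22. APP-PS1 brain against blood gave 13, with limma voom 7, and leaving out 1 library gave 8 (APP-PS1 blood replicate 2) to 26 (WT blood replicate 5), with 21 without APP-PS1 blood replicate 3. APP-PS1 against WT blood gave 1, with DESeq2 0, limma voom 3, no filter 5, a 5 CPM filter 7, sex as a term 0, thinning 0, only the 2 groups 3, without the 2 libraries that stood apart 0, and leaving out 1 library 0 to 3 (0 without WT blood replicate 1, 2, 3 or 5 or APP-PS1 blood replicate 1 or 3, and 3 without WT brain replicate 3). The interaction gave 1, with DESeq2, limma voom, thinning and without the libraries that stood apart 0 each, and leaving out 1 library 0 to 1 (0 without APP-PS1 brain replicate 2 or any APP-PS1 blood library).

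Signs that turned belonged to values that had not passed. Cd69 in blood between strains was -0.21 with limma voom and -1.09 with sex as a term, and -0.24 to 1.02 over left-out libraries. Inpp4b in brain between strains was -0.054 with no filter, -0.053 with the 5 CPM filter, -0.40 with sex, -0.15 thinned and -0.14 to 0.35 over left-out libraries. Inpp4b in blood was -0.072 with limma voom, -0.23 with either other filter, -0.42 with sex, -0.46 thinned, -0.83 without the libraries that stood apart and -0.80 to 0.47 over left-out libraries. Its interaction was 0.34 with limma voom, 0.18 with either other filter, 0.018 with sex, 0.32 thinned, 0.83 without the libraries that stood apart and -0.43 to 0.82 over left-out libraries. Over left-out libraries the brain values ran from -0.36 to 0.82 for Vps37b, -0.061 to 0.99 for Qpct and -0.54 to 0.24 for Tmem123, and the Qpct interaction from -1.37 to 0.094. The mean CPM difference of P2rx7 in brain was 3.98 without the libraries that stood apart and -14.3 to 8.06 over left-out libraries. That of Cd101 in blood was 1.21 without the libraries that stood apart and -9.58 to 7.19 over left-out libraries, and 0.046 as a difference of log2(CPM + 10). The cause was not tested.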
